A study of Mus musculus with 9 samples.

Results

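The 10 genes described here, which bring iron into cells, store it, send it out, free it from heme or sense its level, were followed in mouse bone through lactation and weaning. They and the further lists of genes used below were chosen by name, with earlier results of these data known. Counts of them beside all genes are therefore a description and not an independent test. A gene was counted as measured where the array carried a probe set assigned to that gene alone. Of the 10 genes, 9 were measured, among 18194 measured genes in all. Transferrin, the plasma carrier of iron (Trf), shared its only probe set with another gene and is not analysed here. RNA came from tibial shafts, enriched for osteocytes, of wild type CD-1 mice aged 16 to 18 weeks, and was hybridised to Affymetrix M430 arrays, with 3 arrays in each of 3 groups. The groups were age-matched virgin mice, lactating mice killed on day 12 of lactation, and post-lactation mice killed on day 7 after weaning was forced on lactation day 12. Litters of the nursing mothers were set to 8 to 13 pups, marrow was spun out of the shafts, and surface cells were digested away with collagenase, trypsin and EDTA. The series asked which genes osteocytes use when they remodel the bone around them. Groups follow the array titles, although the field that names the tissue source says virgin for the post-lactation arrays too. The bone is given here as tibia, although a sentence on the extraction speaks of femurs. Nothing in the labels ties an array to its own animal, so p-values cover only the spread among these arrays, which may be technical.

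Cells take up iron by binding transferrin to the transferrin receptor and drawing the complex into endosomes. There the released iron is reduced and moved into the cytosol. Iron is then used in mitochondria for heme and iron-sulfur clusters, stored in ferritin, or exported through ferroportin, and iron regulatory proteins set this balance by binding the mRNAs of several of these genes. Developing red cells in the marrow are the main users of transferrin iron, and macrophages return iron from old red cells. In bone, osteoclasts are also known to take up transferrin iron for their many mitochondria.

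Tfrc, the receptor gene, was the uptake gene with the widest change, so its promoter is shown first. The window runs from 250 bases before a RefSeq start site through the first 30 bases from it, on the plus strand, at chr16:32608646-32608925 of GRCm38.p6. Capitals mark GGAAGTG, an ETS-type motif that begins 9 bases into the transcript from this start site. They also mark the overlapping TGACGT, which begins at base 14 and is the core of a CRE site. From another RefSeq start site of Tfrc the same motifs lie upstream, beginning at -218 and -213.

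Tfrc promoter: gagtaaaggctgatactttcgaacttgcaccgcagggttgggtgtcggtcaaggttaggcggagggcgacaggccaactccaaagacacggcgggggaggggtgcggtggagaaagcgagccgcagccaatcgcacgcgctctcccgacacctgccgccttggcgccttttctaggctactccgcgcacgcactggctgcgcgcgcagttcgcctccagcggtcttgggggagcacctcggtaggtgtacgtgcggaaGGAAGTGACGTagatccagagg

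The motifs were chosen after these sequences had been seen, and both strands of RefSeq windows of this kind were searched. GGAAGTG occurred in 11% of all 32851 windows and TGACGT in 7.51%. The erythroid-type motifs AGATAA and CCACACCC occurred in 11.2% and 3.56% of windows, and neither was found in the windows of Tfrc. RefSeq windows were at hand for 5 of the 10 genes, namely Tfrc, Steap3, Fth1, Ireb2 and Aco1. Steap3 had AGATAA in 1 of its 4 windows, beginning at -45 from the start site, and GGAAGTG in another, beginning at -228. A match is a string of letters and not a shown binding site.

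All levels are log2 signal, so a step of 1 is a doubling, and levels of different genes are not compared because each probe set binds with its own strength. The arrays fell into 3 sets, inferred only from exactly equal values between arrays and named in no label, and each set held 1 array of every group. Differences are therefore given over all arrays, inside each set, and from a fit that blocks on the set. Array medians ran from 4.32 in set 1 to 4.82 in set 2. A gene mean below 4.87, the 40th percentile of all gene means, is called dim. Osteocyte markers lay on average 3.89 above the array median in virgin 1, which stood apart, 5.82 and 6.17 in virgin 2 and virgin 3, 5.54 to 5.78 in lactation arrays and 5.20 to 5.90 in post-lactation arrays. Neutrophil markers were 7.77 to 8.80 above the array median in the 9 arrays, so transcripts of marrow cells were present in every group. Precision is limited throughout by having 3 arrays a group.

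After weaning, the messages of 2 iron genes fell against lactation. Tfrc was 4.82-fold lower, and Slc25a37, which encodes mitoferrin 1, the carrier that brings iron into the mitochondria of developing red cells, was 10.03-fold lower. None of the other 7 genes passed the test in this comparison, although the mean of each was lower after weaning. Genes were tested with limma over all 18194 genes, and a gene was called where its Benjamini-Hochberg adjusted p was under 0.05. The 2 called iron genes stand beside 129 called genes in all, 0.709% of those tested, of which 126 were lower after weaning (0.693%). With the set block the same 2 iron genes were called, beside 3.53% of all genes. In the same arrays 13 of 16 markers of red cell precursors were called lower, with a median difference of -4.06, and in such bulk RNA fewer cells of a type and less RNA per cell cannot be told apart. In order of the difference, Slc25a37 was gene 24 and Tfrc gene 60 from the lowest of 18194. The median difference of the 9 iron genes was -0.29, beside a median of 0.00 over all genes, of which 49.6% had the lower mean after weaning. Groups did not overlap, with every post-lactation array below every lactation array, for 4 iron genes, beside 4.38% of all genes. For Slc40a1 and Aco1, which are among the 4, the groups did overlap in the second probe set. Within all 3 array sets the post-lactation array was the lower for 7 iron genes, beside 16.1% of all genes. Such shares are not matched for ties or brightness. In pairs of arrays of sets 2 and 3, 36.1% to 44.1% of probe sets were exactly equal, and a tied gene cannot be lower in every set. Of the 18194 genes 7022 were dim in every group, against 0 of the 9 iron genes.

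**Figure D1:**
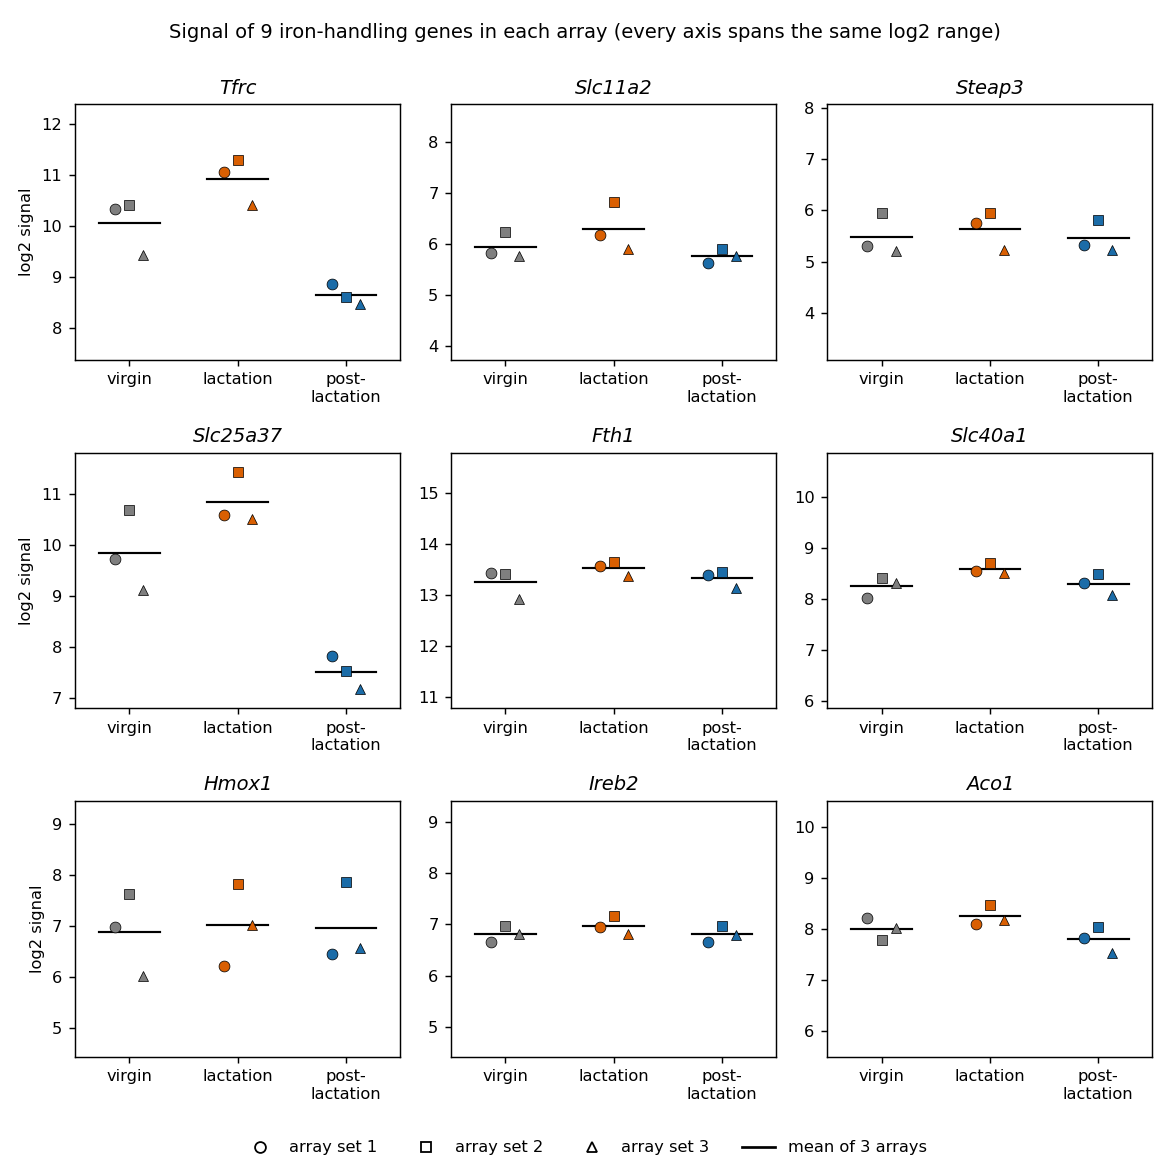
Log2 signal of the 9 measured iron genes in each of 9 arrays (vertical axis, with the same span in every panel), with virgin, lactation and post-lactation arrays along the horizontal axis, point shape showing the array set and bars the mean of 3 arrays. Post-lactation arrays lie below all others for Tfrc (8.48 to 8.86) and Slc25a37 (7.18 to 7.82), whereas the groups of Fth1, Hmox1 and Ireb2 overlap.

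Among the uptake genes, the receptor Tfrc moved most. Its level was 8.86, 8.48 and 8.62 in post-lactation arrays 1 to 3, against 10.41, 11.29 and 11.06 in lactation arrays 1 to 3. The groups did not overlap, and the gap between them was wider than the spread inside either. The difference was -2.27 (SE 0.31, 95% confidence interval -2.95 to -1.59, limma adjusted p = 0.00428), and it was -2.20, -2.67 and -1.93 within sets 1, 2 and 3. With the set block the limma adjusted p was 0.00199.

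Tfrc in virgin bone lay between the other groups, at 10.33, 10.42 and 9.43 in arrays 1 to 3. The lactation mean of 10.92 ± 0.45 exceeded the virgin mean of 10.06 ± 0.55 (SD, n = 3 each), but lactation 1 was below virgin 2, so the groups overlapped. That difference was 0.86 (SE 0.31, 95% confidence interval 0.18 to 1.54), and it was positive in each set, at 0.74, 0.87 and 0.98. It did not pass the test over all genes (limma unadjusted p = 0.0173, adjusted p = 1, and 0.178 with the array set block). Leaving out virgin 3 gave the lowest difference, 0.55, leaving out lactation 1 gave the highest, 1.12, and leaving out virgin 1, whose osteocyte markers were low, gave 0.99.

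The post-lactation mean of Tfrc, 8.65 ± 0.19, was also below the virgin mean of 10.06 ± 0.55 (SD, n = 3 each), and every post-lactation array was below every virgin array. The difference was -1.41 (SE 0.31, 95% confidence interval -2.09 to -0.73), or 2.65-fold lower. It missed the threshold without a block (limma adjusted p = 0.250) and passed it with the array set block (limma adjusted p = 0.0337). With the block, leaving out any array but post-lactation 2 ended the call, with limma adjusted p from 0.0628 without virgin 3 to 0.264 without post-lactation 1. Within sets 1, 2 and 3 it was -1.47, -1.80 and -0.95.

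In all, 6 probe sets reported Tfrc, and they shared the direction after weaning but not the size. The probe set used here, 1452661_at, was the brightest. The next brightest, 1422966_a_at, averaged 6.09 ± 0.20 after weaning and 7.68 ± 0.26 in lactation (SD, n = 3 each), a difference of -1.59 with a limma adjusted p of 0.016 in the fit over all probe sets. The control probe set at the 3′ end of the transcript differed by -1.40 (limma adjusted p = 0.115). The remaining 3 had mean levels over the 9 arrays under the dim level, and they differed by between -1.50 and -0.70, with overlap between groups in the last of these. All 6 were higher in lactation than in virgin bone, by 0.53 to 1.08, and none was called. These groups overlapped in 1452661_at and in the control probe set at the 5′ end. They did not overlap in 1422966_a_at (1.08), 1422967_a_at (0.93) and the control probe sets at the 3′ end (1.05) and in the middle (0.81). All 6 were also lower after weaning than in virgin bone. That last difference was -1.41 for 1452661_at and between -0.57 and -0.17 for the other 5, so the step below the virgin level rested mainly on 1 probe set. The mean of all 6 gave -1.41 between post-lactation and lactation, which was still called, and -0.53 between post-lactation and virgin, which was not.

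**Figure D2:**
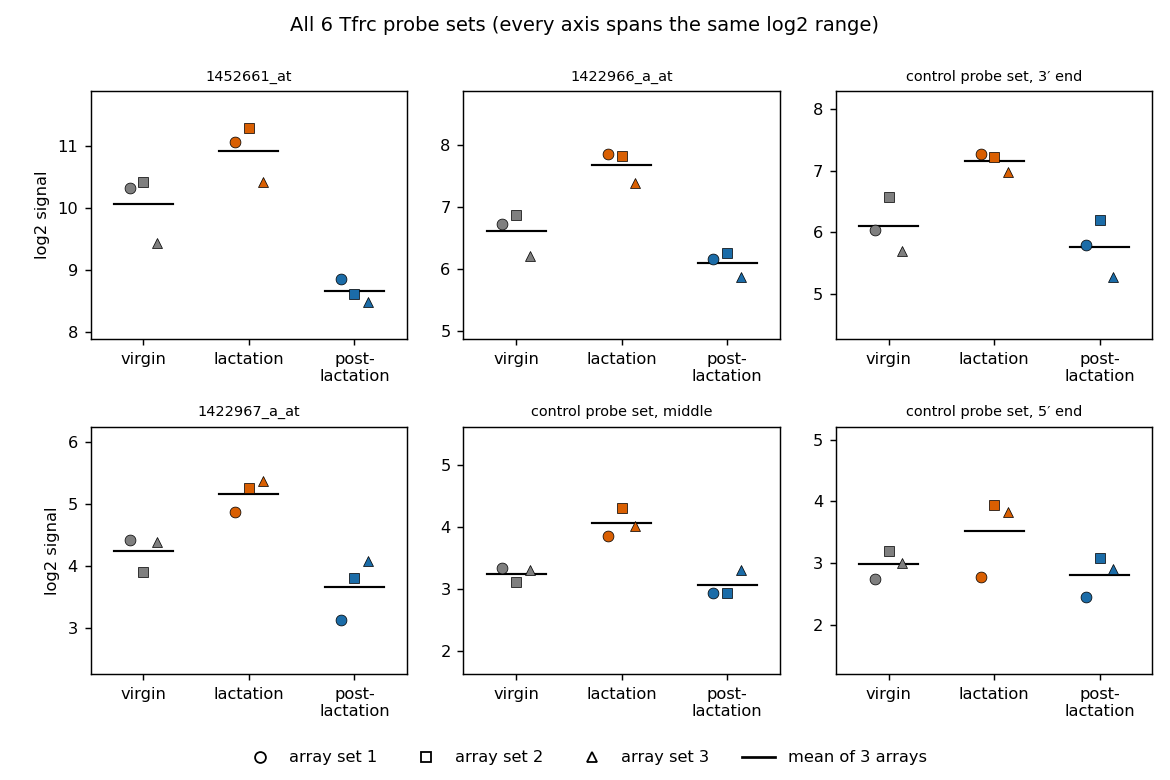
Log2 signal of the 6 probe sets of Tfrc in each array (vertical axis, with the same span in every panel), by group along the horizontal axis, with point shape for the array set and bars for the mean of 3 arrays. Lactation has the highest mean in every panel, and the gap between post-lactation and virgin means is wide only for 1452661_at.

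Slc11a2 encodes DMT1, the transporter that moves reduced iron out of the endosome. It measured 5.64, 5.77 and 5.90 in post-lactation arrays, against 5.90, 6.83 and 6.18 in lactation arrays. The lowest lactation array touched the highest post-lactation array, and lactation 2 stood above the rest. The difference was -0.53 (95% confidence interval -1.10 to 0.04, and -0.88 to -0.19 with the set block). Within the sets it was -0.54, -0.93 and -0.13. It was not called without a block (limma adjusted p = 1) or with it (limma adjusted p = 0.135). A second Slc11a2 probe set of similar brightness differed by -0.57 without overlap, and another by -0.27. Virgin arrays measured 5.83, 6.24 and 5.77, and virgin 3 was exactly equal to post-lactation 2. Lactation differed from virgin bone by 0.36 and post-lactation from virgin bone by -0.18, and without a block both intervals spanned 0. With the set block the interval for lactation minus virgin was 0.009 to 0.70, and it was not called (limma adjusted p = 0.609).

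Steap3 encodes the reductase that readies endosomal iron for DMT1. Its means were 5.48 ± 0.40, 5.65 ± 0.37 and 5.46 ± 0.31 in virgin, lactation and post-lactation arrays (SD, n = 3 each). All 3 groups overlapped. Its values were exactly equal in virgin 2 and lactation 2 (5.94) and in lactation 1 and post-lactation 2 (5.23). Post-lactation differed from lactation by -0.19 (95% confidence interval -0.80 to 0.42, and -0.46 to 0.08 with the set block).

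Mitoferrin 1 carried the widest differences of all 9 genes. Its gene had 1 probe set of its own, 1417750_a_at, and 1 shared probe set that was not examined. The result therefore rests on 1 probe set. Slc25a37 measured 7.82, 7.18 and 7.54 in post-lactation arrays 1 to 3, against 10.50, 11.43 and 10.58 in lactation arrays 1 to 3. The highest post-lactation array was more than 2 below the lowest lactation array. The difference was -3.33 (SE 0.38, 95% confidence interval -4.17 to -2.48, limma adjusted p = 0.00148), with -2.76, -3.89 and -3.32 within the sets and a limma adjusted p of 0.00232 with the set block.

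Virgin bone held Slc25a37 at 9.73, 10.68 and 9.12 in arrays 1 to 3, below lactation on average but overlapping with it. The lactation mean was 10.84 ± 0.52 and the virgin mean 9.84 ± 0.78 (SD, n = 3 each), a difference of 1.00 (SE 0.38, 95% confidence interval 0.15 to 1.84). Within the sets it was 0.86, 0.75 and 1.38. It was not called (limma unadjusted p = 0.025, adjusted p = 1, and 0.308 with the set block). With an array left out it ran from 0.64 without virgin 3 to 1.41 without virgin 2, and it was 0.94 without virgin 1.

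Against virgin bone the post-lactation level of Slc25a37 was 5.03-fold lower and the groups did not overlap. The difference was -2.33 (SE 0.38, 95% confidence interval -3.18 to -1.49), with -1.91, -3.14 and -1.95 within the sets. This call was narrow. The limma adjusted p was 0.0484, and 0.0315 with the set block. Leaving out virgin 1 gave 0.127, virgin 2 gave 0.109, lactation 1 gave 0.0706, lactation 3 gave 0.0709, and post-lactation 1, 2 and 3 gave 0.140, 0.253 and 0.180, whereas the difference itself stayed between -2.69 and -1.91. A fit over all probe sets gave 0.102, and with the set block every array left out ended the call (limma adjusted p 0.0619 to 0.157).

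In the 2 other comparisons the background was lower. Between lactation and virgin bone none of the 18194 genes was called (0%), although 328 genes, 2 of them iron genes, had an unadjusted limma p under 0.05, and the fit with the array set block called 4 genes (0.022%), no iron gene among them. All 9 iron genes had the higher mean in lactation, beside 52.5% of all genes. Their median difference was 0.27, beside 0.01 over all genes. By the probe set used for each gene, only Slc40a1 did not overlap, beside 2.06% of all genes. In its second probe set the groups did overlap. Within every set 5 iron genes were higher, beside 10.4% of all genes. Between post-lactation and virgin bone 32 genes were called (0.176%), and 82 with the block (0.451%). Of the iron genes 1 was called without the block and 2 with it. The mean was lower after weaning for 6 of 9, beside 48.7% of all genes, and their median difference was -0.03. Tfrc and Slc25a37 were the 2 that did not overlap, beside 1.49% of all genes with every post-lactation array lower. They were also the 2 that were lower in every set, beside 8.15% of all genes. These shares of all genes are likewise not matched for ties or brightness. The 3 comparisons share arrays, so their values are not independent.

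**Figure D3:**
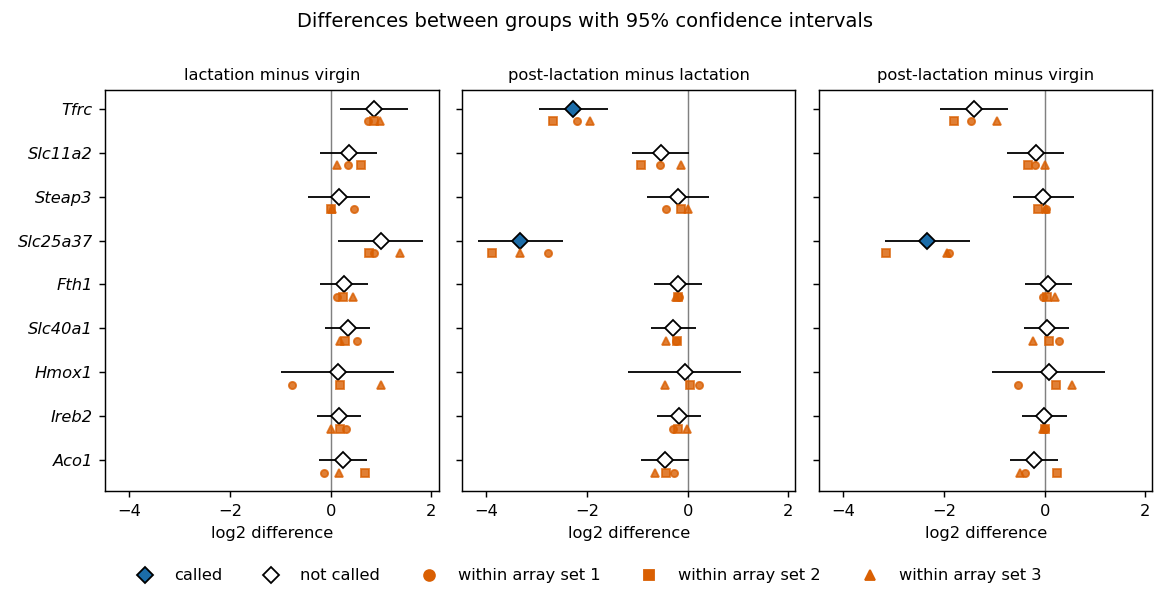
Log2 difference of each iron gene in the 3 comparisons (horizontal axis, diamonds with 95% confidence intervals from limma), with filled diamonds for called genes and small points for the difference within each array set. Tfrc and Slc25a37 lie at -2.27 and -3.33 between post-lactation and lactation, and the intervals of the other 7 genes span 0 in every panel. The intervals drawn are those of the fit without a block.

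The storage gene did not pass the test in any comparison. Fth1, the heavy chain of ferritin, which oxidises iron as it is stored, measured 13.40, 13.14 and 13.46 in post-lactation arrays, against 13.37, 13.65 and 13.56 in lactation arrays. The groups overlapped. The difference was -0.19 (95% confidence interval -0.67 to 0.28), with -0.16, -0.19 and -0.23 within the sets. With the set block the interval was -0.386 to -0.002 (limma adjusted p = 0.324). Virgin arrays measured 13.43, 13.41 and 12.93, so lactation differed from virgin bone by 0.27 and post-lactation from virgin bone by 0.08. For lactation minus virgin the interval with the set block was 0.08 to 0.46 (limma adjusted p = 0.376). The second Fth1 probe set differed by -0.13 between post-lactation and lactation. The probe set used can bind related transcripts.

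Slc40a1 encodes ferroportin, the exporter of cellular iron, which is abundant in macrophages that clear red cells. It measured 8.32, 8.09 and 8.50 in post-lactation arrays, against 8.51, 8.70 and 8.56 in lactation arrays. Every post-lactation array was below every lactation array, by a narrow margin. The difference was -0.29 (95% confidence interval -0.74 to 0.16, limma adjusted p = 1). With the set block the interval was -0.55 to -0.03 and the limma adjusted p was 0.269. Virgin arrays measured 8.03, 8.42 and 8.32, all below the lactation arrays, a difference of 0.34 for lactation minus virgin that was not called either. Its interval with the set block was 0.08 to 0.59 (limma adjusted p = 0.423). The second Slc40a1 probe set differed by 0.43 for lactation minus virgin and by -0.31 for post-lactation minus lactation, with overlap between groups in both. The 14 macrophage markers averaged 2.22 to 2.46 above the array median in virgin arrays, 2.36 to 2.70 in lactation arrays and 2.27 to 2.70 in post-lactation arrays, and none of them was called in any comparison.

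Hmox1 encodes heme oxygenase 1, which opens heme and frees its iron. It varied more between arrays of a group than between groups, at 6.97, 7.63 and 6.02 in virgin arrays, 7.01, 7.82 and 6.21 in lactation arrays and 6.44, 6.56 and 7.86 in post-lactation arrays. The highest array of each group belonged to array set 2. Post-lactation differed from lactation by -0.06 with a 95% confidence interval of -1.18 to 1.06, and the 3 sets did not share a sign, at 0.23, 0.04 and -0.46. With the set block the interval was -0.79 to 0.66.

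The sensors of cytosolic iron are the iron regulatory proteins IRP1, encoded by Aco1, and IRP2, encoded by Ireb2. Ireb2 had means of 6.81 ± 0.16, 6.98 ± 0.18 and 6.81 ± 0.16 in virgin, lactation and post-lactation arrays (SD, n = 3 each). Its values were exactly equal in virgin 1 and post-lactation 1 (6.65) and in virgin 2 and post-lactation 3 (6.98). Virgin 3 and lactation 1 were tied as well (6.81). The near-equal virgin and post-lactation means therefore rest in part on tied values. Ireb2 differed by -0.17 between post-lactation and lactation (95% confidence interval -0.61 to 0.27). Aco1 measured 7.83, 7.54 and 8.03 in post-lactation arrays, against 8.18, 8.47 and 8.10 in lactation arrays. Every post-lactation array was lower than every lactation array, and the difference of -0.45 (95% confidence interval -0.93 to 0.03) was not called (limma adjusted p = 1). With the set block the interval was -0.86 to -0.03 and the limma adjusted p was 0.291. Virgin arrays of Aco1 measured 8.23, 7.78 and 8.02 and overlapped with both groups. The probe set used for Aco1 can bind related transcripts. Its second probe set differed by -0.24 with overlap between groups, and another, which was dim, went the other way, by 0.32.

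Further genes of iron and heme handling were taken from a list of 62, of which 57 were measured. Of these, 5 were called between post-lactation and lactation, all lower after weaning, beside 0.709% of all genes. With the array set block 14 were called, all lower, beside 3.53% of all genes. The median of the 57 was -0.04, with 32 lower and 25 higher. The genes for mitochondrial import and iron-sulfur cluster assembly had the lowest median, -0.66 over 10 genes, with 3 called and 7 called with the block. Genes of uptake, endosome and reduction had 1 of 14 called, and heme transport and breakdown 1 of 12. Storage and chaperones had 0 of 6, export and ferroxidases 0 of 3, and systemic and transcriptional control 0 of 12. The medians of these lists were 0.00, -0.11, -0.13, -0.31 and 0.16 in that order. The uptake list also held Ltf and Lcn2, and the storage and chaperones list was measured without Ftl1.

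Abcb10, a mitochondrial inner membrane transporter known to stabilise mitoferrin 1, averaged 6.89 ± 0.13 after weaning and 9.05 ± 0.34 in lactation (SD, n = 3 each). That is 4.47-fold lower (limma adjusted p = 0.0018). Glrx5, a glutaredoxin of iron-sulfur cluster assembly, averaged 9.33 ± 0.29 after weaning and 11.22 ± 0.37 in lactation, 3.72-fold lower (limma adjusted p = 0.0109). Isca1, a later factor of the same assembly line, was 2.70-fold lower, at 8.74 ± 0.16 after weaning and 10.17 ± 0.23 in lactation (limma adjusted p = 0.0174). The paralog of mitoferrin 1, mitoferrin 2 (Slc25a28), went the other way and averaged 7.72 ± 0.11 after weaning and 7.42 ± 0.08 in lactation, a difference of 0.30 that was not called.

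Outside the mitochondria, Tfr2, a second transferrin receptor known from liver and red cell precursors, averaged 5.67 ± 0.35 after weaning and 7.19 ± 0.07 in lactation. It was 2.87-fold lower (limma adjusted p = 0.0084). Blvrb, a biliverdin reductase abundant in red cells, averaged 7.91 ± 0.29 after weaning and 10.48 ± 0.59 in lactation, 5.96-fold lower (limma adjusted p = 0.0075). Called with the block only were Snx3, Nfs1, Lyrm4, Isca2, Hscb, Ncoa4, Cp, Slc48a1 and Abcg2. Their differences ran from -1.09 for Abcg2, which exports heme and other molecules, to -0.47 for Snx3, which sorts the transferrin receptor back to the cell surface. Ncoa4, which hands ferritin over for breakdown, differed by -0.52. Genes that no fit called ran from -0.99 for Slc39a8, a metal importer, to 0.78 for Bmp6, the growth factor that tells the liver about iron load.

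Between lactation and virgin bone none of the 57 genes was called, with or without the block, and their median was 0.01. The mitochondrial genes had a median of 0.50 there, with 8 of 10 higher in lactation. Between post-lactation and virgin bone none was called without the block. With it, Glrx5 (-1.08) and Blvrb (-1.54) were called, beside 0.451% of all genes.

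**Figure D4:**
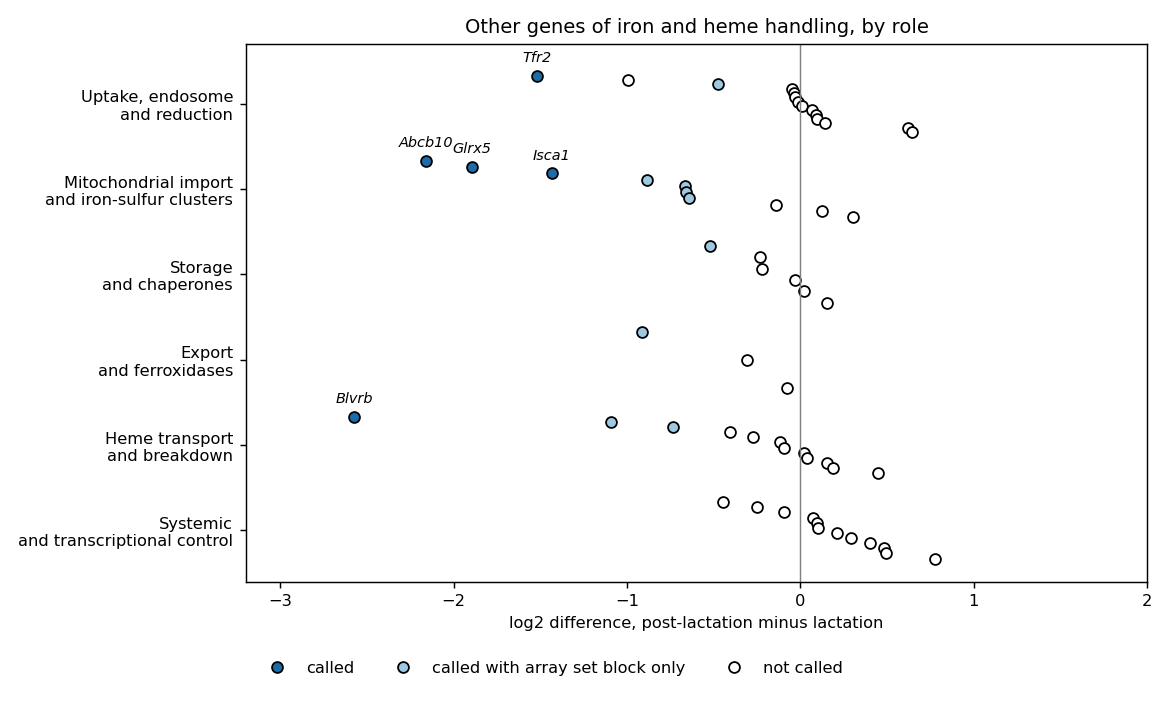
Log2 difference between post-lactation and lactation (horizontal axis) of 57 further genes of iron and heme handling, in rows by role, with dark points for called genes, light points for genes called with the array set block only and open points for the rest. The called genes Blvrb (-2.57), Abcb10 (-2.16), Glrx5 (-1.90), Tfr2 (-1.52) and Isca1 (-1.43) all lie left of 0.

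Markers of red cell precursors fell after weaning in the same arrays as Tfrc and Slc25a37. Of 18 erythroid markers 16 were measured, and 13 were called lower after weaning than in lactation (14 with the block). Their mean lay 1.07, 1.01 and 0.63 above the array median in post-lactation arrays 1 to 3, against 4.001, 4.50 and 4.37 in lactation arrays 1 to 3. Slc4a1, the anion exchanger of red cells, averaged 6.81 ± 0.74 after weaning and 12.28 ± 0.44 in lactation (SD, n = 3 each). Alas2, the first enzyme of heme synthesis in red cells, averaged 5.48 ± 0.64 after weaning and 10.24 ± 0.40 in lactation. Rhag, Kel, Trim10, Epb42 and Tspo2 were dim after weaning. In virgin arrays 1 to 3 the erythroid mean was 3.45, 3.78 and 2.78 above the array median, so virgin bone lay between the other groups, as it did for Tfrc and Slc25a37. Between lactation and virgin bone 14 of 16 markers had the higher mean in lactation, none was called, and the median was 1.16. The part of erythroid cells in the differences of the iron genes was not tested.

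Tfrc and the erythroid mean had the same order of groups. After subtracting each set's mean, Tfrc stood at 0.24, 0.31 and -0.01 in virgin arrays 1 to 3, where the erythroid mean stood at 0.47, 0.81 and 0.18. In lactation arrays 1 to 3 Tfrc stood at 0.97, 1.18 and 0.98 and the erythroid mean at 1.40, 1.54 and 1.40. In post-lactation arrays 1 to 3 Tfrc stood at -1.22, -0.96 and -1.49 and the erythroid mean at -1.87, -1.59 and -2.35. Fth1 stayed between -0.22 and 0.22 in the same arrays.

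**Figure D5:**
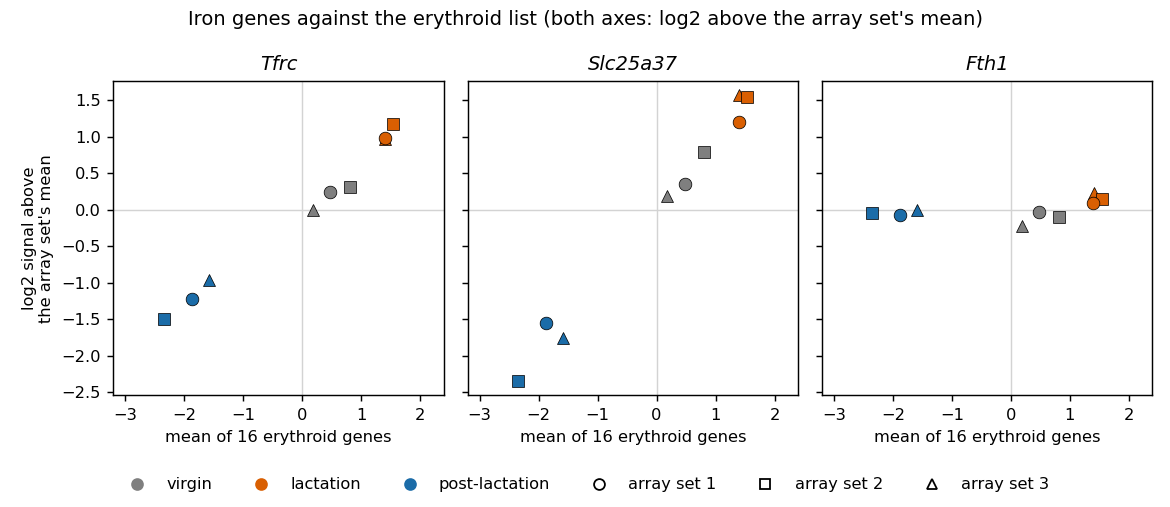
Set-centred log2 signal of Tfrc, Slc25a37 and Fth1 (vertical axes) against the set-centred mean of 16 erythroid markers (horizontal axes) in 9 arrays, coloured by group and shaped by array set. Tfrc and Slc25a37 are lowest in the 3 post-lactation arrays, where the erythroid mean is -2.35 to -1.59, and Fth1 stays between -0.22 and 0.22.

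Other cell markers had smaller median differences than the erythroid ones. Osteoclast markers lay 2.64 to 2.71 above the array median in virgin arrays, 3.47 to 3.85 in lactation arrays and 2.68 to 3.18 in post-lactation arrays. Between post-lactation and lactation 9 of 11 were lower, none was called and 5 were called with the block, with a median of -0.73. Of 6 cell division genes 1 was called lower after weaning and 3 with the block, with a median of -0.88. The B lymphocyte markers went the other way, and their mean lay 1.43 to 3.10 above the array median in virgin arrays, 2.09 to 2.93 in lactation arrays and 3.30 to 4.06 in post-lactation arrays. All 6 had the higher mean after weaning than in lactation, with a median of 1.17, none was called and 1, Vpreb1, was called with the block. The 3 adipocyte markers had a median of 0.71 and none was called in either fit. The 9 osteocyte markers had a median of -0.02 in that comparison and none was called. The part of osteoclasts, B lymphocytes and dividing cells in the result for Tfrc was not tested. RNA integrity, read as the gap between 3′ and 5′ control probe sets, was 0.26 to 0.58 for Gapdh in set 1, 0.20 to 0.30 in set 2 and 0.76 to 0.90 in set 3. By group, the beta-actin gap was 0.73 to 1.24 in virgin, 0.98 to 1.05 in lactation and 0.76 to 1.21 in post-lactation arrays. The gap for the Tfrc controls, whose 5′ probe set was dim, was 2.69 to 3.37, 3.15 to 4.49 and 2.38 to 3.33 in that order.

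The genes whose set-centred values over the 9 arrays were closest to those of Tfrc were Prdx2, Abcb10, Urod, Ank1 and Uros. Their root mean square difference from Tfrc was 0.08, 0.08, 0.11, 0.14 and 0.14 on the log2 scale, among 10915 genes that were not dim. For Slc25a37 the closest were Isg20, Prxl2a, Tmcc2, Nxpe2 and 1300017J02Rik, at 0.15 to 0.21. All 10 were called lower after weaning than in lactation, by -3.75 to -2.16, which follows in part from choosing genes that resemble called ones. Ank1 is also 1 of the erythroid markers and Abcb10 1 of the mitochondrial genes above.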

How the data were processed

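The authors deposited log2 signal for 45101 probe sets on 9 arrays, made with RMA, as the submitters' processing notes state. GenePattern and Bioconductor are named in the series text, with versions not given in the sources used here. Values lay between 1.55 and 14.9 and were used as deposited. Of the probe sets 34958 named 1 gene in the array annotation supplied, 932 several and 9211 none. Each of 18194 genes was represented by its brightest probe set on average. Array sets were found from exact ties: within a set 2.50% to 44.1% of probe sets were equal in a pair of arrays, between sets at most 2 probe sets.

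All 9 arrays were fitted with limma 3.58.1 (lmFit, eBayes) in R 4.3.3 on group means, with 6 residual degrees of freedom, or 4 with the array set as a block. Benjamini-Hochberg adjustment ran over all genes, and the fit was tested on simulated data. Replicate numbers did not pair the arrays, since 2 of 9 same-numbered pairs correlated above 0.1. Arrays of 1 set did, with all 9 pairs between 0.47 and 0.73.

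The members and lists were chosen with earlier results of these data known. All measured members were named in each comparison, other pathway genes where called, and the 5 closest genes of each member whose group means spanned at least 1. Trf and 5 of the other pathway genes are not analysed here. Promoters are from RefSeq (GRCm38.p6). Alternatives covered array scaling, the choice of probe set, blocks and each array left out. Figures were drawn with matplotlib 3.10.9.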

Additional observations from a re-analysis of the deposited data

How the results depend on the processing

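Between post-lactation and lactation, Tfrc and Slc25a37 were called under all 18 alternatives in which single genes were tested, with adjusted p from 0.00147 to 0.0293 for Tfrc and 0.000172 to 0.0109 for Slc25a37. The values were -2.52 to -1.41 for Tfrc, the last with a gene's probe sets averaged, and -3.50 to -3.03 for Slc25a37. As Slc25a37 had 1 probe set of its own, averaging a gene's probe sets or fitting all of them could not change its value. Adding a block while leaving out array set 1, chosen after seeing the data, left 2 residual degrees of freedom and called 0 genes and 0 members in this comparison and against virgin, with Tfrc at -2.30 (adjusted p = 0.161) and Slc25a37 at -3.61 (adjusted p = 0.138) between post-lactation and lactation.

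Counts of called genes moved with the array set block, to 4 for lactation minus virgin, 642 for post-lactation minus lactation and 82 for post-lactation minus virgin, beside 0, 129 and 32 without it. Quantile normalization gave 1 and 205 in the first pair of these, and subtracting array medians gave 1 in the first. Leaving out an array gave 76 to 138 genes for post-lactation minus lactation, the fewest without lactation 2, and 13 to 34 for post-lactation minus virgin. With the block as well, these became 195 (without lactation 2) to 927 (without virgin 1) and 0 (without virgin 2 or post-lactation 1) to 42. Pathway genes called with the block were 14 for post-lactation minus lactation and 2 for post-lactation minus virgin. Members called for post-lactation minus virgin were 2 with the block, 0 over all probe sets, 0 to 1 with an array left out and 0 to 1 with the block as well. Tfrc was called in 1 of 18 alternatives there and Slc25a37 in 10 of 18. A replicate block gave 0, 118 and 33 genes and 0, 2 and 1 members in the 3 comparisons and changed no call of a member.

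In the alternative fits, signs turned only for members with differences near 0. For post-lactation minus virgin, Ireb2 was 0.016 after quantile normalization and Steap3 was 0.033 with probe sets averaged. With an array left out, Hmox1 ran from -0.29 to 0.54 for lactation minus virgin, -0.51 to 0.34 for post-lactation minus lactation and -0.37 to 0.46 for post-lactation minus virgin. In that last comparison Steap3 ran from -0.21 to 0.20, Fth1 from -0.090 to 0.17, Slc40a1 from -0.065 to 0.15 and Ireb2 from -0.092 to 0.074. Within single array sets Aco1 changed sign too. For lactation minus virgin it was 0.24 over all arrays, and -0.12, 0.69 and 0.16 within sets 1, 2 and 3. For post-lactation minus virgin it was -0.21 over all arrays, and -0.39, 0.25 and -0.48 within the sets. The cause was not tested for any of these.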

Other observations

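A pair of secreted iron binders of neutrophils ran against Tfrc, and they are named after their values were seen. Ltf, lactoferrin, averaged 13.51 ± 0.12 after weaning and 12.86 ± 0.27 in lactation (SD, n = 3 each), a difference of 0.64 that was not called (limma adjusted p = 0.657, and 0.0744 with the array set block). Lcn2, which traps iron-loaded bacterial siderophores, averaged 13.22 ± 0.18 after weaning and 12.60 ± 0.14 in lactation, a difference of 0.62 (limma adjusted p = 0.555, and 0.106 with the block). Both were higher after weaning within each of the 3 array sets. The 7 neutrophil markers had a median difference of 0.31 in that comparison, with 5 higher and 2 lower after weaning, from -0.43 to 1.00. None was called without the block and 1, Camp (0.45), was called with it (limma adjusted p = 0.0369).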
